A study of Homo sapiens with 4 samples.

Results

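Mediator is a multi-subunit coactivator that joins transcription factors bound at enhancers to RNA polymerase II at the promoter. Its head and middle modules contact the polymerase, its tail module receives many activators, MED14 runs through the complex as a scaffold, and a kinase module made of MED12, MED13, cyclin C (CCNC) and CDK8 binds the core reversibly. In prostate cells the complex is best known through MED1, the subunit that binds nuclear receptors, the androgen receptor among them. The genes described here are all protein-coding genes whose symbol is MED followed by a number, with or without a final L, together with CDK8, CDK19 and CCNC. This rule, which used no expression value, took 33 of the 60675 genes counted, of which 19586 are protein-coding. The 33 members were 9 head genes, 9 middle genes, the scaffold MED14, 7 tail genes and 7 kinase module genes.

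RNA was sequenced from LNCaP, an androgen-responsive human prostate cancer cell line, in 4 libraries. All cells were kept in phenol red-free medium with serum depleted of hormones, dialyzed or charcoal-stripped, and were given 1 nM R1881, a synthetic androgen, for 72 h. The 2 R1881 + vehicle libraries came from cells with DMSO, and the 2 R1881 + CPI-455 libraries from cells that also received 50 µM CPI-455, an inhibitor of the KDM5 demethylases, which remove methyl groups from lysine 4 of histone H3. The comparison asks which transcripts of androgen-treated cells differ when KDM5 activity is inhibited. No library came from cells without androgen, and a single cell line was used. The DMSO concentration is 0.05% in the methods of the study and below 0.01% in the sample labels. The replicates are biological replicates according to the methods, but how the cultures were separated is not given.

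The vehicle libraries held 19623553 and 20690819 fragments counted on genes and the CPI-455 libraries 9522920 and 5401588, so that 3 fragments corresponded to at most 0.142 CPM (counts scaled to the size of each library) under vehicle and to at most 0.595 CPM under CPI-455. Low members were therefore measured less precisely under CPI-455. All 9 luminal prostate markers examined exceeded 3 counts in every library, and their summed level was 932 to 1030 CPM under vehicle and 358 to 409 CPM under CPI-455. Of 12 markers of basal cells, fibroblasts, endothelial cells and leukocytes, COL1A1 was the 1 marker above 3 counts in every library, KRT5 was at 0 in all 4, and the summed level was 5.90 to 6.57 CPM under vehicle and 11.6 to 11.7 CPM under CPI-455. The part of these shifts in the results below was not tested. RNA from whole cultures does not tell apart fewer cells of a kind and less RNA per cell.

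All 33 members passed the filter on low counts. Members moved in both directions under CPI-455. MED18 in the head, MED1 and MED9 in the middle, MED29 in the tail and MED13 in the kinase module fell by at least 2-fold in edgeR's quasi-likelihood test (FDR below 0.05), and MED24 in the tail and MED12L in the kinase module rose by the same criteria. The other 26 members were not called. Thus 7 of 33 members (21.2%) were called, beside 42.4% of the 17600 genes tested and 40.0% of the 13813 protein-coding genes tested. By direction, 5 members (15.2%) were lower, beside 21.3% of all genes and 24.4% of protein-coding genes, and 2 (6.06%) were higher, beside 21.0% and 15.6%. With no minimum fold change, 18 members (54.5%) passed an FDR below 0.05, beside 62.6% of all genes and 65.1% of protein-coding genes. Of these, 12 were lower, beside 32.8% and 38.7%, and 6 were higher, beside 29.8% and 26.3%. The normalised values of the groups did not overlap for 24 members (72.7%), beside 81.9% of all genes and 83.2% of protein-coding genes.

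The log2 fold change, given throughout as CPI-455 over vehicle, ran from -4.54 for MED18 to 1.36 for MED24. For 17 of the 33 members it lay within 0.5 of 0. Its median was -0.30 over the members, beside -0.04 over all genes tested and -0.21 over the protein-coding ones, and its SD was 1.13 over the members and 1.47 over protein-coding genes. The summed level of the 33 members was 1933 and 1998 CPM in the vehicle libraries and 1761 and 1719 CPM in the CPI-455 libraries.

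**Figure D1:**
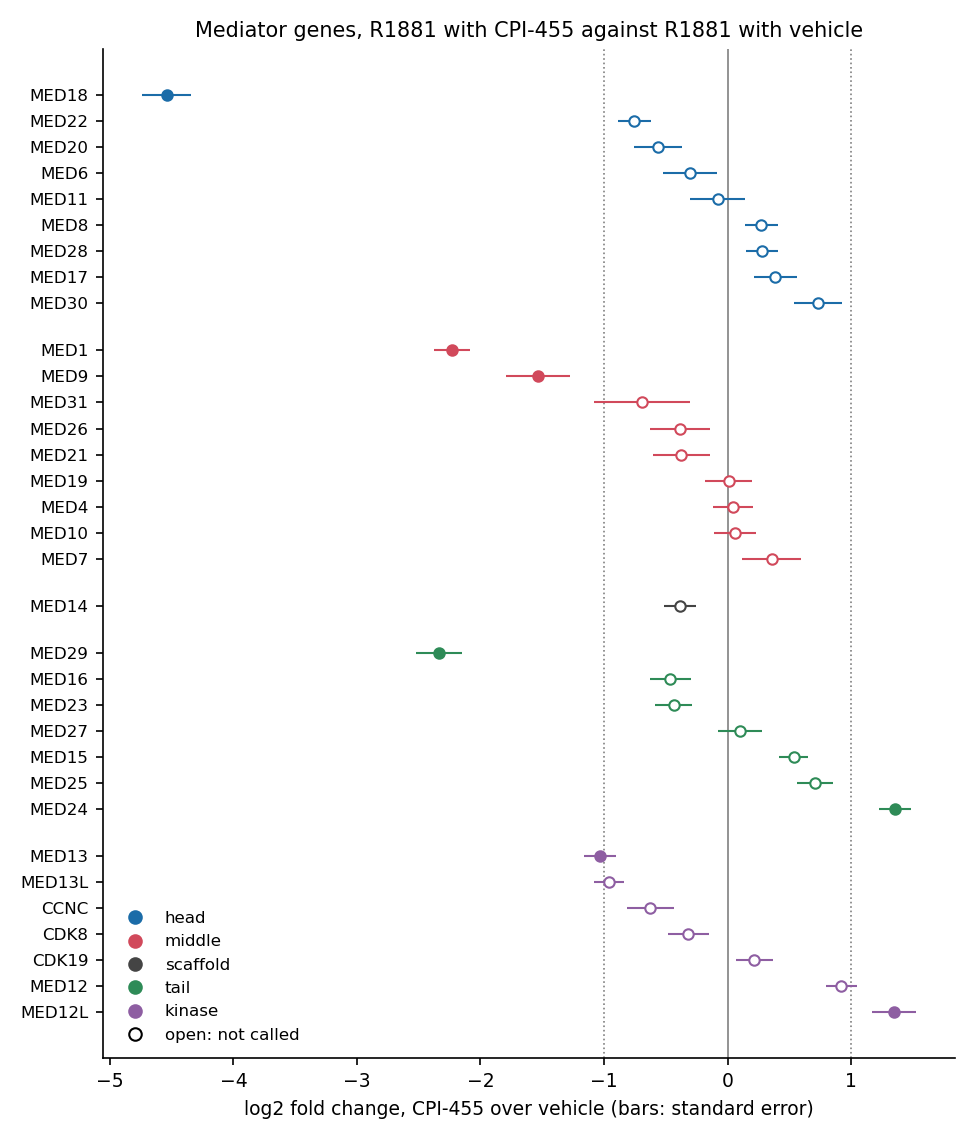
Log2 fold change of the 33 Mediator genes (CPI-455 over vehicle, edgeR), grouped by module, with bars for the standard error; filled points passed an FDR below 0.05 and a 2-fold change, and the dotted lines mark 2-fold. MED18 sits alone at -4.54, MED29 and MED1 lie near -2.3, and every module except the single-gene scaffold has points on both sides of 0.

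The members' start sites were examined in the RefSeq promoter windows of GRCh38.p14, which run from 250 bases before the transcription start to 50 bases after it. Windows were found for 25 of the 33 members, and those of MED13, MED14, MED21, MED22, MED28, MED30, MED6 and MED8 were not analysed here. The stretches below end at the gene start of the count files, or 33 bases before it for MED12L, and they are shown because these 5 genes include the 4 largest falls and 1 of the 2 rises. They are chr1:28328790-28329001 (plus strand) for MED18, chr19:39391196-39391302 (plus strand) for MED29, chr17:39451287-39451513 (minus strand) for MED1, chr17:17476750-17476985 (plus strand) for MED9 and chr3:151085414-151085663 (plus strand) for MED12L. Each is printed in the direction of the gene, and capitals mark letters of the motifs GGGCGG (the GC box of the SP family), CCGGAA (ETS family), CCAAT (NF-Y) and TATAAA (the TATA box), searched on both strands, where matches of different motifs may overlap.
MED18: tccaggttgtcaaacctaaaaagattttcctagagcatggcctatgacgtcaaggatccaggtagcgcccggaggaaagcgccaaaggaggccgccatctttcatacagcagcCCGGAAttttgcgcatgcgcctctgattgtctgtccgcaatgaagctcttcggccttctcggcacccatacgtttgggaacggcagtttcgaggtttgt
MED29: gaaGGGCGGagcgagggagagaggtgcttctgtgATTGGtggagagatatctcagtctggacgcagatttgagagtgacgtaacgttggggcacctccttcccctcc
MED1: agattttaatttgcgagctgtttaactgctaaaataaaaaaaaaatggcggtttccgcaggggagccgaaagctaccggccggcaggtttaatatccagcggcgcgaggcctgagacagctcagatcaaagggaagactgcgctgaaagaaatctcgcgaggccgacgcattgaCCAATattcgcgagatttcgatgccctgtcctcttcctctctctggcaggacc
MED9: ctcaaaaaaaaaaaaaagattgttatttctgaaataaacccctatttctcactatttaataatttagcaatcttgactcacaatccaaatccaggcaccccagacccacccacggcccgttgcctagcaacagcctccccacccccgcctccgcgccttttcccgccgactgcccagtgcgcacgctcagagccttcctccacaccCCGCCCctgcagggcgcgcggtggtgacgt
MED12L: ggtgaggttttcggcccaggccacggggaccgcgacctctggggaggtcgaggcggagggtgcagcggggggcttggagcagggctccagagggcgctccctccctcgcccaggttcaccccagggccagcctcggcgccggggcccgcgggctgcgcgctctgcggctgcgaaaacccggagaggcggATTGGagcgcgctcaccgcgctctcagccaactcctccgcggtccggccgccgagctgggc

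The upstream stretch of MED18 holds an ETS match, that of MED29 a GC box and a CCAAT match on the reverse strand, that of MED1 a CCAAT match, that of MED9 a GC box on the reverse strand and that of MED12L a CCAAT match on the reverse strand. Over whole windows, the GC box was found in 15 of the 25 member promoters (60%) and in 44.6% of the 27305 promoters of the table. The ETS motif was found in 9 (36%) and in 17.6%, the NF-Y motif in 10 (40%) and in 35.7%, and the TATA box in 2 (8%) and in 12.0%. These sets are not alike. All members are protein-coding, whereas the 27305 promoters outnumber the 19586 protein-coding genes counted. Each member's window was the nearest to its gene start, while the background held the first listed window of each symbol. Among the 4 lower members with a window, the GC box, the ETS motif and the NF-Y motif were each found in 2. Among the 19 members with a window that were not called, these motifs were found in 13, 7 and 6. A match is a run of letters and not a measured binding site. The RefSeq start sites in the windows of MED15, MED24 and MED7 lie 11697, 6807 and 16154 bases from the gene start of the count files.

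In the head module, MED18 fell by more than any other member. MED18 (ENSG00000130772, chr1:28329002-28335967, plus strand) joins MED20 and MED8 in the part of the head that faces the polymerase. It had 1858 and 1915 counts in the vehicle libraries and 38 and 15 counts in the CPI-455 libraries. Scaled to library size, these were 88.0 and 87.7 CPM under vehicle and 4.27 and 2.97 CPM under CPI-455. Both CPI-455 libraries lay far below both vehicle libraries, and the fall was 23.3-fold (87.8 ± 0.198 against 3.62 ± 0.918 CPM, SD, n = 2). The log2 fold change was -4.54 (SE 0.20, edgeR FDR 5.83e-07), and it stayed between -4.90 and -4.37 under the 14 alternative normalisations, tests and left-out libraries. The exact 95% Poisson intervals of the CPI-455 counts were 26.9 to 52.2 and 8.40 to 24.7, which cover counting error only. MED18 shares no exon base with another annotated gene.

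The partners of MED18 did not show a fall of this size. MED20 had 511 and 469 counts under vehicle and 137 and 78 under CPI-455 (log2 fold change -0.56, SE 0.19, edgeR FDR 0.0281). MED8 had 1018 and 1105 counts under vehicle and 546 and 292 under CPI-455 (0.27, SE 0.13, edgeR FDR 0.099). Neither reached 2-fold. Within a library, the ratio of MED18 to MED20 counts was 3.64 and 4.08 under vehicle and 0.277 and 0.192 under CPI-455, a 16.7-fold fall of the mean ratio. The ratio of MED18 to MED8 was 1.83 and 1.73 under vehicle and 0.0696 and 0.0514 under CPI-455, a 29.7-fold fall. These ratios do not depend on library scaling, and the pairs other than paralogues were chosen after the values were seen. With 2 against 2 libraries an exact permutation test cannot reach a p below 1 in 3, so the ratios were described and not tested.

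The other head members stayed under 2-fold. MED22, a small head subunit that pairs with MED11, had a log2 fold change of -0.75 (SE 0.13, edgeR FDR 8.70e-04). MED11 had 339 and 287 counts under vehicle and 118 and 73 under CPI-455, and its change was the smallest of the head at -0.08 (SE 0.22, edgeR FDR 0.778). Its normalised levels, 16.0 and 13.1 CPM under vehicle and 13.3 and 14.5 CPM under CPI-455, overlapped. MED30, a subunit found in animals but not in yeast, had a log2 fold change of 0.73 (SE 0.19, edgeR FDR 0.0082). MED17, around which the head is built, MED28 and MED6 had log2 fold changes of 0.39, 0.28 and -0.30 and did not pass the FDR. After a trend on exon length and GC content was removed, MED17 had 0.91 (edgeR FDR 7.77e-04) and MED28 0.73 (edgeR FDR 5.18e-04), still under 2-fold. MED6 then had 0.13 (edgeR FDR 0.611). The median over the 9 head genes was -0.08, and it was -0.30 when MED28 and MED30, whose place in the complex varies between accounts, were set apart.

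In the middle module MED1 and MED9 fell. MED1 (ENSG00000125686, chr17:39404285-39451286, minus strand) carries the motifs through which Mediator binds ligand-bound nuclear receptors. It had 3597 and 3701 counts under vehicle and 285 and 207 under CPI-455. The levels were 170 and 169 CPM under vehicle and 32.0 and 41.0 CPM under CPI-455, without overlap. The fall was 4.70-fold (log2 fold change -2.23, SE 0.15, edgeR FDR 2.42e-06), with -2.45 to -1.80 under the alternatives.

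MED9 (ENSG00000141026, chr17:17476986-17493226, plus strand) pairs with MED4 in the middle module. It had 576 and 663 counts under vehicle and 67 and 66 under CPI-455. The levels were 27.3 and 30.4 CPM under vehicle and 7.53 and 13.1 CPM under CPI-455. The groups did not overlap, although the CPI-455 libraries differed more from each other than the vehicle libraries did. The fall was 2.89-fold (log2 fold change -1.53, SE 0.26, edgeR FDR 6.93e-04). MED4, its partner, had 926 and 1103 counts under vehicle and 388 and 274 under CPI-455, and its levels of 43.8 and 50.5 CPM under vehicle and 43.6 and 54.3 CPM under CPI-455 overlapped (log2 fold change 0.04, SE 0.16, edgeR FDR 0.825). The ratio of MED9 to MED4 counts was 0.622 and 0.601 under vehicle and 0.173 and 0.241 under CPI-455, a difference of -1.58 on the log2 scale.

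The other 7 middle members were not called. MED19 changed least of all 33 members. It had 443 and 472 counts under vehicle and 171 and 121 under CPI-455, and the levels of 21.0 and 21.6 CPM under vehicle lay within those of 19.2 and 24.0 CPM under CPI-455 (log2 fold change 0.01, SE 0.19, edgeR FDR 0.971). MED10 also overlapped between groups (0.06). MED7 and MED21 form a hinge in the middle module, and their log2 fold changes were 0.36 and -0.37. Neither passed the FDR. The ratio of MED7 to MED21 counts was 0.582 and 0.662 under vehicle and 1.02 and 1.03 under CPI-455. MED26, which takes part in recruiting elongation factors, had a log2 fold change of -0.38 (SE 0.24, edgeR FDR 0.199).

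MED31 had the lowest counts of all members under vehicle, 154 and 162, and had 54 and 13 under CPI-455. Its log2 fold change was -0.69 (SE 0.39, edgeR FDR 0.145), and the CPI-455 libraries were further apart in ratio than for any other member, at 6.07 and 2.58 CPM. Without CPI-455 replicate 1 it was called lower at -1.53, and without CPI-455 replicate 2 the value was -0.32. Of its exon bases 58.3% are shared with TXNDC17 on the opposite strand, and fragments there were not assigned to either gene. The median over the 9 middle genes was -0.37, and their summed level was 363 and 374 CPM under vehicle and 185 and 243 CPM under CPI-455.

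MED14, the scaffold that ties head, middle and tail together, had 1843 and 2198 counts under vehicle and 657 and 351 under CPI-455. The levels were 87.3 and 101 CPM under vehicle and 73.9 and 69.6 CPM under CPI-455 and did not overlap. The difference stayed below 2-fold (log2 fold change -0.39, SE 0.13, edgeR FDR 0.0263). After a trend fitted on the length and GC content of the exons was removed library by library, the value was 0.16.

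The tail module held a fall and a rise. MED29 (ENSG00000063322, chr19:39391303-39400637, plus strand), a small subunit placed in the tail of the human complex, had 2895 and 2992 counts under vehicle and 193 and 171 under CPI-455. The levels were 137 and 137 CPM under vehicle and 21.7 and 33.9 CPM under CPI-455, without overlap. The fall was 5.04-fold (log2 fold change -2.33, SE 0.19, edgeR FDR 7.81e-06) and ranged from -2.70 to -2.03 under the alternatives.

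MED24 (ENSG00000008838, chr17:40019097-40061215, minus strand), a tail subunit that binds MED16 and MED23, moved in the other direction. It had 2955 and 3152 counts under vehicle and 3582 and 1640 under CPI-455, the latter from the shallower libraries. The levels were 140 and 144 CPM under vehicle and 403 and 325 CPM under CPI-455. Both CPI-455 libraries lay above both vehicle libraries, and the rise was 2.56-fold (log2 fold change 1.36, SE 0.13, edgeR FDR 1.90e-05), with 1.17 to 1.53 under the alternatives. MED1 and MED24 had similar counts under vehicle, at a ratio of 1.22 and 1.17, and a ratio of 0.0796 and 0.126 under CPI-455, an 11.9-fold fall.

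The remaining 5 tail members stayed under 2-fold, on either side of 0. MED25 and MED15, both contacted directly by activators, had log2 fold changes of 0.71 (SE 0.15, edgeR FDR 0.00223) and 0.53 (SE 0.12, edgeR FDR 0.00335). MED16 and MED23, the neighbours of MED24 in the tail, had -0.46 (SE 0.17, edgeR FDR 0.0364) and -0.44 (SE 0.15, edgeR FDR 0.0283). The value of MED23 was 0.11 with the length and GC trend removed. MED27 had 531 and 597 counts under vehicle and 277 and 124 under CPI-455, and its levels of 25.1 and 27.3 CPM under vehicle lay within those of 31.1 and 24.6 CPM under CPI-455 (log2 fold change 0.10, SE 0.18, edgeR FDR 0.652). The summed level of the 7 tail genes was 549 and 554 CPM under vehicle and 718 and 647 CPM under CPI-455. The tail was the 1 module with a higher sum in both CPI-455 libraries, and MED24 accounted for 403 and 325 CPM of it there.

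**Figure D2:**
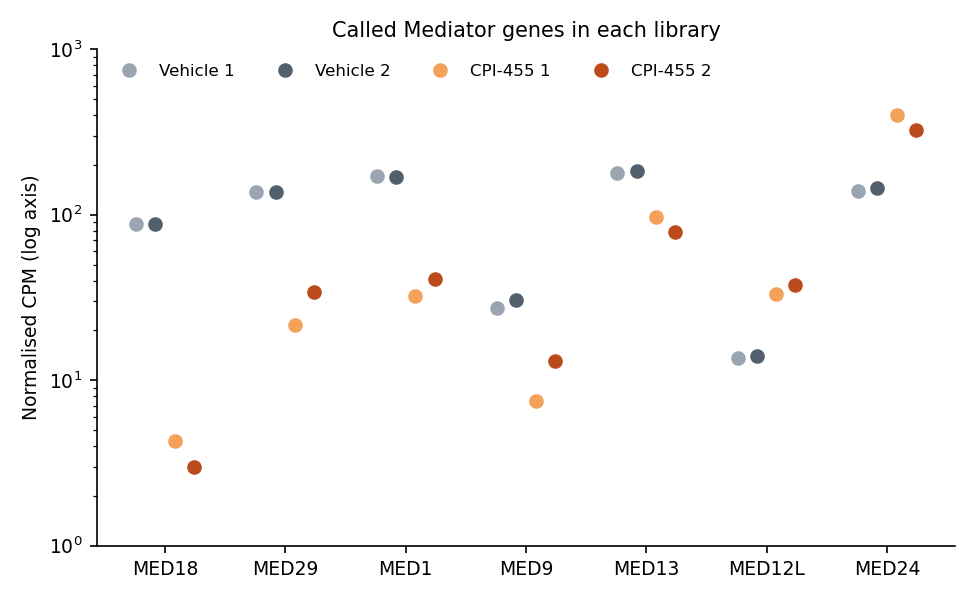
Normalised level (CPM, log axis) of the 7 called Mediator genes in each of the 4 libraries; each point is 1 library. The CPI-455 points of MED18, MED29, MED1, MED9 and MED13 lie below both vehicle points, and those of MED12L and MED24 lie above them.

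The kinase module has a pair of paralogues at 3 of its positions, and the pairs were compared within each library. MED13, which links the kinase module to the core, had 3761 and 4027 counts under vehicle and 862 and 399 under CPI-455. Its levels (ENSG00000108510, chr17:61942605-62065282, minus strand) were 178 and 184 CPM under vehicle and 96.9 and 79.1 CPM under CPI-455, without overlap. The fall was 2.05-fold (log2 fold change -1.03, SE 0.13, edgeR FDR 1.09e-04), just past the 2-fold line, and the call was kept in 10 of the 14 alternatives. It was -0.95 without CPI-455 replicate 2, -0.86 with upper-quartile normalisation and -0.53 with the length and GC trend removed.

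MED13L, its paralogue, had 2993 and 3226 counts under vehicle and 696 and 355 under CPI-455. The levels of 142 and 148 CPM under vehicle and 78.3 and 70.4 CPM under CPI-455 did not overlap. The log2 fold change of -0.96 (SE 0.12, edgeR FDR 1.07e-04) lay just short of 2-fold, so that MED13 and MED13L fell on opposite sides of the line while they differed by less than their standard errors. MED13L was called lower in 6 alternatives, among them without vehicle replicate 1 (-1.01) and without CPI-455 replicate 1 (-1.06). The ratio of MED13L to MED13 counts was 0.796 and 0.801 under vehicle and 0.807 and 0.890 under CPI-455.

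MED12, which activates the kinase, had 1507 and 1661 counts under vehicle and 1336 and 646 under CPI-455. The levels were 71.3 and 76.1 CPM under vehicle and 150 and 128 CPM under CPI-455, without overlap. The log2 fold change of 0.92 (SE 0.13, edgeR FDR 1.94e-04) was short of 2-fold, and it was 1.10 with upper-quartile normalisation and 1.08 with the length and GC trend removed.

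MED12L (ENSG00000144893, chr3:151085697-151437072, plus strand), the paralogue of MED12, was the lowest member per exon length under vehicle. It had 288 and 307 counts under vehicle and 295 and 190 under CPI-455. The levels of 13.6 and 14.1 CPM under vehicle and 33.2 and 37.7 CPM under CPI-455 did not overlap, and the rise was 2.55-fold (log2 fold change 1.35, SE 0.18, edgeR FDR 1.42e-04), with 1.16 to 1.78 under the alternatives. Of the exon bases of MED12L, 28.8% are shared with IGSF10 on the opposite strand, which makes its value less certain. The ratio of MED12L to MED12 counts was 0.191 and 0.185 under vehicle and 0.221 and 0.294 under CPI-455.

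CDK8, the kinase, and CCNC, its cyclin, were lower in mean level without reaching 2-fold. CDK8 had 567 and 587 counts under vehicle and 193 and 108 under CPI-455, at 26.8 and 26.9 CPM against 21.7 and 21.4 CPM (log2 fold change -0.32, SE 0.17, edgeR FDR 0.131). CCNC had a log2 fold change of -0.63 (SE 0.19, edgeR FDR 0.0175). CDK19, the paralogue of CDK8, had 1581 and 1738 counts under vehicle and 693 and 518 under CPI-455, at 74.9 and 79.6 CPM against 77.9 and 103 CPM, which overlapped (0.22, SE 0.15, edgeR FDR 0.232). With the length and GC trend removed, the values were -0.02 for CDK8 (edgeR FDR 0.921) and -0.12 for CCNC (edgeR FDR 0.581). For CDK19 the value was then 0.72 (edgeR FDR 0.00117), still under 2-fold. The ratio of CDK19 to CDK8 counts was 2.79 and 2.96 under vehicle and 3.59 and 4.80 under CPI-455. On the log2 scale the mean ratio was higher under CPI-455 by 0.53 for CDK19 over CDK8, by 0.44 for MED12L over MED12 and by 0.09 for MED13L over MED13. The ratio of each of the 3 paralogue pairs was higher in both CPI-455 libraries than in both vehicle libraries, for MED13L over MED13 by a narrow margin (0.801 against 0.807). Such separation was common. The groups did not overlap for any other pair of subunits compared, nor in level for 81.9% of all genes tested.

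**Figure D3:**
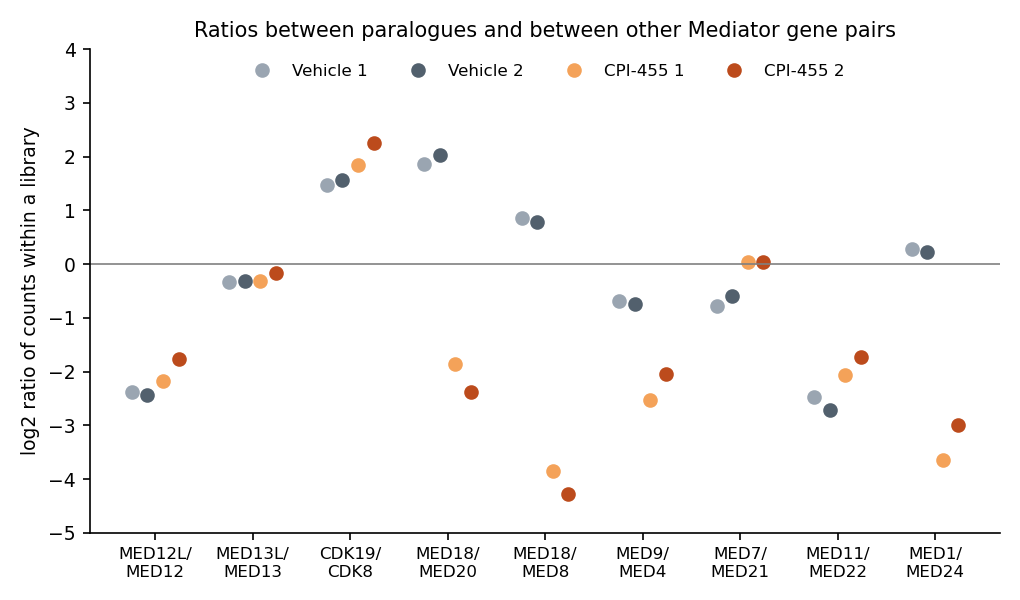
Log2 ratio of the counts of 2 Mediator genes within each library, for the 3 paralogue pairs and 6 other pairs of subunits; each point is 1 library. The ratios with MED18, MED9 or MED1 on top are lower in both CPI-455 libraries, with differences of -4.06 and -4.89 for MED18 over MED20 and over MED8, and the paralogue ratios differ by 0.53 or less.

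Per kilobase of exon, the members differed widely in level in both groups. With vehicle, the mean level ran from 1.10 CPM per kb for MED12L to 43.5 CPM per kb for MED18, with a median of 9.88. With CPI-455 it ran from 1.72 CPM per kb for MED9 to 52.3 CPM per kb for MED24, with a median of 7.16. The highest member was 39.6-fold above the lowest under vehicle and 30.4-fold under CPI-455. The 3 highest members per kb under vehicle were MED18, MED29 and MED1 (43.5, 35.7 and 23.2 CPM per kb), and all 3 fell. In the order of levels under CPI-455, MED18 stood 32nd, MED29 16th and MED1 24th of 33, while MED24 went from 5th to 1st. A level per kb assumes that all annotated exons are used. It also divides by shared exon bases, on which fragments were not assigned, and so understates members that share many. The shared part was 30.1% for MED12L, the lowest under vehicle, 50.1% for MED26 and 58.3% for MED31.

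**Figure D4:**
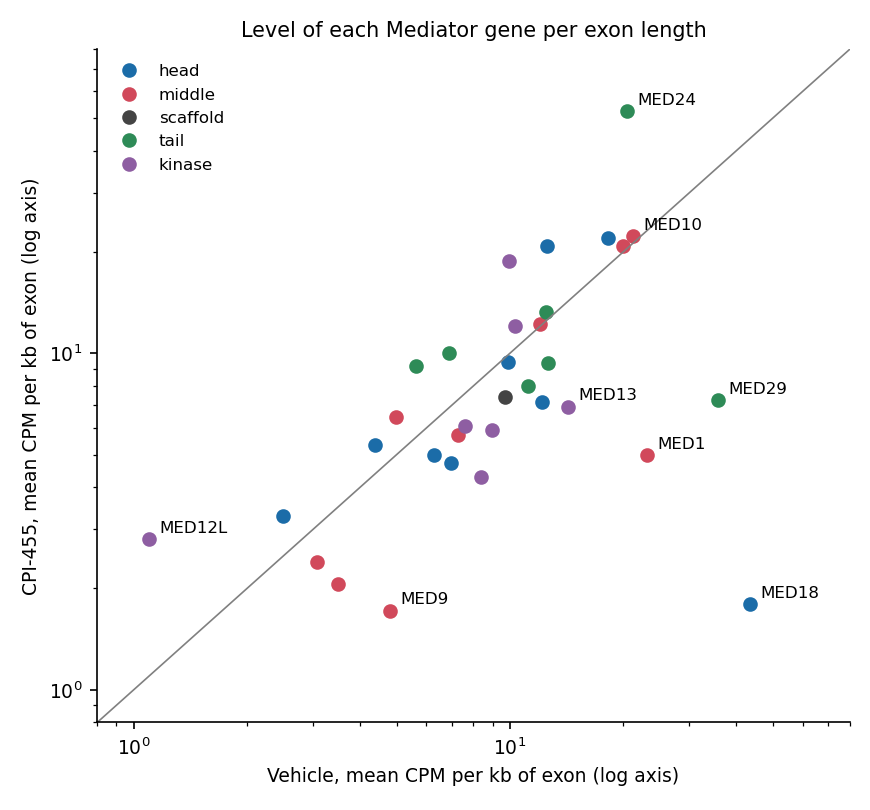
Mean level of each Mediator gene in CPM per kilobase of exon under vehicle (horizontal, log axis) and under CPI-455 (vertical, log axis), n = 2 libraries each; the line marks equal levels. MED18 moves from 43.5 to 1.79 CPM per kb and MED24 from 20.4 to 52.3 CPM per kb, and MED29, MED1 and MED9 also lie well below the line.

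Exon length and base composition differ between the members, and both were examined beside the fold change. Across the 13813 protein-coding genes tested, which are not independent replicates, Spearman's rho with the log2 fold change was 0.19 for exon GC content and -0.14 for exon length. Across the 33 members it was 0.11 and 0.04. The 12 members with at least 50% GC held 1 rise and 2 falls (median log2 fold change -0.04), and the 21 members below it held 1 rise and 3 falls (median -0.32). For 19 members some exon bases are shared with another gene, and for 5 of these, MED11, MED12L, MED26, MED28 and MED31, over 25% are shared. Among the 14 members with no shared base, edgeR called 5 lower (35.7%) and 0 higher. DESeq2 also called 5 lower and 0 higher. With no minimum fold change, 8 of the 14 (57.1%) passed the edgeR FDR, beside 62.6% of all genes tested and 65.1% of protein-coding genes. Of these 8, 7 were lower and 1, MED30, was higher (0.73, edgeR FDR 0.0082). The counts of calls by GC class and by shared bases stand beside 21.3% of all genes tested called lower and 21.0% called higher by edgeR. Over protein-coding genes these shares were 24.4% and 15.6%. The 2 members that rose both share bases, MED24 for 1.12% of its exon length.

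RNA polymerase II and its general initiation factors, which Mediator contacts at the promoter, were examined as a list of 43 genes. Of these, 42 were tested, since POLR2F had 11 counts at most in any library. Among the 42, 11 were called (26.2%), beside 42.4% of all genes tested and 40.0% of protein-coding genes tested. Of these, 4 (9.52%) were lower, beside 21.3% of all genes and 24.4% of protein-coding genes. The other 7 (16.7%) were higher, beside 21.0% and 15.6%, so that the share of rises was near that of protein-coding genes. The median log2 fold change was 0.35, against -0.30 for the Mediator genes. The largest falls were those of GTF2E1 (-2.05), GTF2A1 (-1.99) and POLR2D (-1.74), which belong to TFIIE, TFIIA and the polymerase. The largest rises were those of GTF2H4 (3.68), CCNH (1.47) and ERCC3 (1.41), all of TFIIH. GTF2H4 had 34 and 31 counts under vehicle and 173 and 99 under CPI-455, and 79.0% of its exon bases are shared with other genes. TFIIH had 4 rises among its 10 genes (40%, beside 21.0% of all genes and 15.6% of protein-coding genes called higher), CDK7 included (1.39), the kinase that phosphorylates the tail of the polymerase. TBP, the TATA-binding protein, had 732 and 770 counts under vehicle and 437 and 219 under CPI-455 (0.41, SE 0.15, edgeR FDR 0.0346) and did not reach 2-fold.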

How the data were processed

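RNA-seq counts of 4 LNCaP libraries were analysed, grouped by the sample labels. Reads had been trimmed by the authors with TrimGalore and aligned to GRCh38 with STAR. Fragments on the exons of each gene (Ensembl release 83) had then been counted by featureCounts v1.5.0-p1, and these raw counts were deposited without normalisation. Per the file headers, strand was not used and fragments that overlap several genes were left out. Whether the libraries were stranded, and how RNA was selected, is not given in the sources used here.

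Gene types came from GENCODE release 44. Libraries were normalised with TMM, filtered with filterByExpr (minimum 10 counts) and compared with glmQLFit and glmQLFTest (edgeR 4.0.16, R 4.3.3), fitted over all 17600 genes that passed, with Benjamini-Hochberg adjustment. Genes with an FDR below 0.05 and a 2-fold change were called, the thresholds of the study. CPM are scaled by the TMM factors, the SE is the log2 fold change divided by the square root of F, and ± gives the SD. Only the summed levels of the cell type markers were scaled to library totals without the TMM factors. The members and the lists were chosen with earlier results of these data known. Every library is given for called members, paralogues, MED1, MED14 and the member that changed least in each module, and beyond this rule for MED20, MED8, MED4 and MED31. Of the general transcription list, the 3 largest calls in each direction and TBP are named. Other genes were named after their values were seen.

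The alternatives used DESeq2 1.42.0, other scalings and filters, the likelihood-ratio test, a replicate block, an exon length and GC trend (mgcv 1.9.3) and left-out libraries. Among same-numbered libraries the deviations from the group means had a correlation of 0.04, so the numbers were not treated as a pairing. On simulated counts for 17600 genes, 159 of 200 genes changed by 1.5 on the log2 scale were called (79.5%), and 2 others. The simulation gave all genes and both groups a common dispersion. In the data 42.4% of genes were called, and log2 CPM of replicates correlated at 0.993 under vehicle and 0.946 under CPI-455. The simulated shares therefore need not hold for these libraries. No molecular identifiers were used, so fragments are not independent molecules, and the intervals hold for counting error alone. The values of a further gene near a member are not reported here.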

Additional observations from a re-analysis of the deposited data

Results flagged for a closer look

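Antisense transcripts of 2 Mediator genes lie outside the rule for the complex and stood above their level in the vehicle libraries. MED8-AS1, on the strand opposite to MED8, had 50 and 48 counts under vehicle and 85 and 33 under CPI-455, with a log2 fold change of 1.83 (SE 0.37, edgeR FDR 0.00199). MED4-AS1, opposite to MED4, had 3 and 1 counts under vehicle and 30 and 15 under CPI-455, with a log2 fold change of 4.97 (SE 0.80, edgeR FDR 5.16e-04). The vehicle counts of MED4-AS1 are at or under 3, so the size of this fold change depends on the prior count. MED8-AS1 shares 139 exon bases with MED8 and MED4-AS1 shares 307 with MED4, and fragments on these bases were assigned to neither gene. Strand was not used, so fragments on the other exon bases of the antisense genes were counted from either strand. Another antisense transcript, MED14OS, opposite to MED14, had 29 and 51 counts under vehicle and 11 and 0 under CPI-455 and was not called (log2 fold change -1.35, SE 0.90, edgeR FDR 0.218). MED8 and MED4 themselves had log2 fold changes of 0.27 and 0.04.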

How the results depend on the processing

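Of the 7 called members, MED18, MED1, MED9, MED24, MED29 and MED12L kept their call in all 14 alternatives, and MED13 in 10. With no minimum fold change, the lower and higher counts were 12 and 6 of 33 for Mediator and 13 and 21 of 42 for the general transcription list. In all, 54.5% of Mediator genes and 81.0% of the list passed, beside 62.6% of all genes tested and 65.1% of protein-coding genes. By direction, 32.8% of all genes and 38.7% of protein-coding genes were lower, and 29.8% and 26.3% were higher. With members that share exon bases left out, edgeR called 0 members higher, and DESeq2 also called 0. With no minimum fold change, 1 of these members, MED30, was higher (edgeR FDR 0.0082) and 7 were lower. Of all protein-coding genes tested, edgeR called 15.6% higher. The replicate block gave 5 lower and 2 higher members, and 4 and 7 genes of the general transcription list, so it moved no count. The median of all genes moved by -0.19 with library totals, by 0.17 with upper-quartile normalisation, by -0.37 without the filter and by 0.22 with DESeq2, relative to -0.04.

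The module medians moved with the scaling. For the head the median was 0.10 with upper-quartile normalisation, -0.27 with library totals, -0.23 with no filter and -0.23 with the likelihood-ratio test, 0.13 with the length and GC trend removed, 0.10 with the trend removed and the replicate block, and -0.30 with MED27 to MED30 set apart, and leaving out a library gave -0.24 (vehicle replicate 2) to 0.052 (vehicle replicate 1). For the tail it was 0.27, -0.090, -0.057 and -0.056 in the first 4 of these and 0.53 with MED27 to MED30 set apart, and leaving out a library gave -0.11 (CPI-455 replicate 1) to 0.20 (CPI-455 replicate 2). For the kinase module it was -0.14, -0.51, -0.47 and -0.47, and -0.021 with the trend removed and -0.021 with the trend and the replicate block.

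In 9 members that were not called, the sign changed in at least 1 alternative. With library totals, no filter and the likelihood-ratio test, MED10 gave -0.13, -0.095 and -0.093, MED27 -0.090, -0.057 and -0.056, MED4 -0.14, -0.11 and -0.11 and MED19 -0.18, -0.15 and -0.15, and MED19 gave -0.027 with DESeq2. With the trend removed, without and with the replicate block, MED23 gave 0.11 and 0.11, MED14 0.16 and 0.16, MED6 0.13 and 0.10, MED27 -0.027 and -0.030 and MED19 -0.21 and -0.21. MED11 gave 0.10 with upper-quartile normalisation. Leaving out a library gave -0.20 to 0.25 for MED10, -0.030 to 0.39 for CDK19, -0.11 to 0.20 for MED27, -0.19 to 0.15 for MED19, -0.16 to 0.18 for MED4 and -0.24 to 0.052 for MED11. The cause was not tested. With a library left out, the lone library of its group was assumed to vary like those of the other group. The depth of the CPI-455 libraries limits the low members most, MED31 and MED18 with 13 and 15 counts in the shallowest library.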

Other observations

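A few Mediator genes begin within 1000 bases of another gene on the opposite strand. There were 10 such pairs, looked for after the values of the members were seen. Of the 10 neighbours, 4 were called, beside 40.0% of protein-coding genes tested. MED29 was the only member of these pairs that was itself called. That edgeR called both genes in no pair therefore rests on MED29 and PAF1 alone. MED29 and PAF1, a subunit of an elongation complex of RNA polymerase II, start 108 bases apart. PAF1 had 2002 and 2053 counts under vehicle and 851 and 468 under CPI-455, a log2 fold change of -0.00 (SE 0.12, edgeR FDR 0.993), beside -2.33 for MED29. MED17 and TAF1D, a subunit of the RNA polymerase I selectivity factor, start 164 bases apart. TAF1D rose from 1690 and 1665 counts to 8289 and 5350 counts, a log2 fold change of 3.67 (SE 0.12, edgeR FDR 2.77e-07), beside 0.39 for MED17. RPL7A, a ribosomal protein gene whose start lies 83 bases from that of MED22, rose by 1.30 on the log2 scale, beside -0.75 for MED22. BYSL, 49 bases from MED20, had -1.23 beside -0.56.

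The 19 pseudogenes named after Mediator genes had at most 6 counts in any library and were not tested.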
